A study of Homo sapiens with 9 samples.

Results

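Collagen chains are the polypeptides that wind 3 at a time into the triple helices of the extracellular matrix, and each chain has its own gene. The chains were taken here as every row of the deposited table whose gene symbol is COL, a number, A and a number, which gave 40 of 15983 genes. They comprise 10 chains of fibrillar collagens, 6 of basement membrane collagen and 24 of other collagens. The rule uses the symbol alone. Of 44 chains listed by symbol, COL5A3, COL6A5, COL9A1 and COL22A1 had no row of that name and were not analysed here.

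The RNA came from KGN, a line from a human granulosa cell tumour used as a model of the ovarian granulosa cell, labelled wild type throughout. All cells were fasted for 12 h and then kept for 72 h with solvent (control), with 0.5 µg/ml insulin (lower dose) or with 1 µg/ml insulin (higher dose), with 3 libraries in each group. The design text gives the comparison of solvent with these insulin doses as the question. All 9 libraries are of a single cell line. Whether replicates are separate cultures is not in the labels, and the p-values therefore reflect only the spread between these libraries, which may be technical.

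In the ovary, collagen forms the basal lamina under the granulosa layer and the fibrils of the surrounding theca and stroma. Fibrillar chains are made as procollagens, trimmed outside the cell and laid into crosslinked fibrils, whereas type IV chains form the sheet-like network of basement membranes. Prolyl and lysyl hydroxylases, chaperones and glycosyltransferases modify the chains in the endoplasmic reticulum, and lysyl oxidases crosslink them afterwards.

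The 6 type IV genes lie in 3 head-to-head pairs: COL4A1 with COL4A2 on chromosome 13, COL4A3 with COL4A4 on chromosome 2, and COL4A5 with COL4A6 on the X chromosome. Within a pair the genes are read in opposite directions. In the RefSeq windows used here the start sites lay 127, 419 and 380 bases apart. The outermost starts in GENCODE 29 differ from these. They are 110307233 for COL4A1 and 110305812, inside COL4A1, for COL4A2. For COL4A4 and COL4A3 they are 227164453 and 227164565, and for COL4A6 and COL4A5 108439497 and 108439844. The 3 windows below show the RefSeq arrangement, and the levels of the first and the last pair are compared across libraries further on. Each is a RefSeq promoter window on GRCh38.p14, plus strand, of 250 bases before and 50 bases after the start of the named gene. Capitals mark the bases that also lie in the window of the partner gene on the minus strand. The positions are chr13:110307034-110307333 for COL4A2, chr2:227164374-227164673 for COL4A3 and chrX:108439588-108439887 for COL4A5.
COL4A2: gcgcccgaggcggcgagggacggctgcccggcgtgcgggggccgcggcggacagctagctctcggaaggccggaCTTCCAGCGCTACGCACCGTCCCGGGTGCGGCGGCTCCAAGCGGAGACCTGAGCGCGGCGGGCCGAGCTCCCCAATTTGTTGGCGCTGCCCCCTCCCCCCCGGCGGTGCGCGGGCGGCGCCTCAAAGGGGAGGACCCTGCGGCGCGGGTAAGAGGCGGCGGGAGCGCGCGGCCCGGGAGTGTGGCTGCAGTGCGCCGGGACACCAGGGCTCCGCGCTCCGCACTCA
COL4A3: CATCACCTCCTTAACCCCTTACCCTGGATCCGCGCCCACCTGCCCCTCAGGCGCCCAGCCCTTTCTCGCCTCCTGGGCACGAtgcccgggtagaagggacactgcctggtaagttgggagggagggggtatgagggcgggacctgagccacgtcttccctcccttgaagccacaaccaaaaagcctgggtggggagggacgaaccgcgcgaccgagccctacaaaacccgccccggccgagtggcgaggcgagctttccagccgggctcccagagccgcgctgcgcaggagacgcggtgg
COL4A5: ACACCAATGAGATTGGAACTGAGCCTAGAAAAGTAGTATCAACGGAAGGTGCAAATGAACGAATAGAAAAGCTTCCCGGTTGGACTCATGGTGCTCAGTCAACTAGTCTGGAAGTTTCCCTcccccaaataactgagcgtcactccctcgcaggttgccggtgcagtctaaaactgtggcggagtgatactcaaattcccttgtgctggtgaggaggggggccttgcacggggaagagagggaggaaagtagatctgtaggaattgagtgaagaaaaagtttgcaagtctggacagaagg
The COL4A2 window shared 226 of its 300 bases with that of COL4A1, against 82 shared bases for COL4A3 with COL4A4 and 121 for COL4A5 with COL4A6. Its GC content was 77.7%, that of the COL4A3 window 67.7% and that of the COL4A5 window 49.3%, beside a median of 58.7% over all 34943 RefSeq windows. On either strand, CCAAT occurred in 34.6% of all windows, GGGCGG in 44.9% and TATAAA in 11.6%. RefSeq windows were matched for 30 of the 40 chains, 41 windows in all, of which 12 held CCAAT, 23 held GGGCGG and 8 held TATAAA. The printed COL4A2 window held 1 CCAAT and 1 GGGCGG match, the COL4A3 window 2 GGGCGG matches and the COL4A5 window 2 CCAAT matches. None of these 3 windows held TATAAA. These matches are descriptions of letters and not of binding.

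Total counts per library were 18965722 to 20446405 in the control group, 19508466 to 20422534 with 0.5 µg/ml insulin and 19887010 to 20208576 with 1 µg/ml. In the library of lowest total, a gene with 0 counts may have up to 3, or 0.158 CPM (the count scaled to a common library total), for counting error only. Lower dose 1 stood apart from the other libraries of its group: chi-square per degree of freedom over genes was 8.01 and 8.46 against them, beside 2.19 between those 2 and 2.62 to 6.71 within the other groups. Of the 12 granulosa markers, 11 passed the filter on low counts, among them the transcription factors FOXL2 at 26.2 ± 2.02 and NR5A1 at 61.8 ± 3.26 CPM (SD, n = 9). GATA4 was the highest of the list at 171.5 ± 10.8 CPM, while INHA stood at 0.656 ± 0.266. AMHR2 did not pass, with 34 counts in all. Summed over the granulosa list, levels were 389 to 432.5 CPM in control, 395 to 424 at the lower dose and 394 to 429 at the higher dose. Of 8 epithelial markers 6 passed, with sums of 1750 to 1925, 1781 to 1957.5 and 1834 to 1957 CPM in these groups. Most of that was the keratin KRT18 at 1756 ± 82.8 CPM, beside KRT8 at 55.1 ± 3.14 and KRT7 at 21.6 ± 2.19, while EPCAM had 7 counts in all. Of 7 endothelial markers 2 passed, with sums of 17.3 to 21.8, 20.3 to 21.0 and 20.7 to 21.5 CPM, nearly all from KDR at 18.3 ± 1.29, while CDH5 had 3 counts. Of 9 blood and immune markers 2 passed, with sums of 54.1 to 63.8, 60.8 to 64.5 and 57.1 to 61.8 CPM, nearly all from CD68 at 58.1 ± 3.599, while HBB had 1 count. Of 10 fibroblast and smooth muscle markers, cell types that make much collagen, 8 passed the filter. Their summed level was 881 to 942 CPM in control, 861 to 1064 at the lower dose and 914 to 1007 at the higher dose. Most of that was ACTA2 at 405.1 ± 43.35 and THY1 at 237.7 ± 11.44 CPM. TAGLN stood at 111.7, PDGFRB at 111 and PDGFRA at 55.38 CPM. CNN1 at 7.074, LUM at 1.983 and DCN at 1.517 CPM were low, and MYH11 and DES had 12 and 40 counts in all. The part of any of these cell types in the collagen levels was not tested. In bulk RNA, fewer cells of a type and less RNA per cell cannot be told apart.

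Of the 40 chains, 29 passed the filter and were tested, and 11 did not. The 29 comprised 9 fibrillar, all 6 basement membrane and 14 other chains. The 11 that did not pass were COL2A1, the cartilage fibril chain, together with COL8A2, COL10A1, COL15A1, COL17A1, COL19A1, COL20A1, COL23A1, COL25A1, COL26A1 and COL28A1. Each of these had between 2 and 59 counts over the 9 libraries, and together they made up at most 0.0047% of the summed collagen level of a library. Passing required counts in the samples, so the 29 are the chains that passed the filter and not all collagens.

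The cells had a collagen repertoire dominated by the chains of types I and III. On the deposited FPKM scale (counts divided by the length of the gene and by the library total), which allows levels of different genes to be compared, COL1A1 stood at 1524 ± 94.1 (SD, n = 9) and ranked 22nd of all genes. COL3A1, the single chain of type III, followed at 663 ± 49.8 FPKM, and COL1A2, the partner of COL1A1 in type I, at 525 ± 19.2. On hg38, GENCODE 29 places COL1A1 at chr17:50183289-50201632 (minus strand), COL3A1 at chr2:188974320-189012746 and COL1A2 at chr7:94394561-94431232 (both plus strand). These 3 chains together made up 69.96% to 70.8% of the summed collagen FPKM of a library. Fibrillar chains in all made up 76.1% to 77.3%, basement membrane chains 9.06% to 9.91% and other chains 13.5% to 14.1%. All shares of summed FPKM given here rest on the deposited gene lengths, and their ranges cover the spread between libraries only. For COL4A1 that length was 15595 bases, beside 6616 bases for its longest coding transcript. The shorter length raises its level from 80.1 to 189, and the basement membrane share with it.

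Behind these 3 came COL4A2 of basement membrane type IV at 274 ± 15.7 FPKM and COL6A2 of the beaded filaments of type VI at 190 ± 8.88. COL5A2, COL8A1, COL5A1 and COL6A1 lay between 116 and 122 FPKM, and the ranges of neighbours in that order overlapped, so the 4 cannot be ranked beyond their spread. COL4A1 at 80.1 ± 4.22 and COL12A1, a chain that lies along fibrils, at 77.4 ± 2.69 FPKM overlapped as well. These 11 chains held 98.95% to 99.04% of the summed collagen FPKM. Further down stood COL18A1 at 14.8 ± 0.826, COL4A5 at 10.9 ± 0.474, COL9A3 at 3.62 ± 0.378 and COL4A6 at 2.30 ± 0.165 FPKM. The other 14 tested chains had mean levels under 1 FPKM, from COL13A1 at 0.976 ± 0.159 down to COL11A1 at 0.0843 ± 0.0324. Of 28 neighbouring pairs in the whole order, 16 overlapped in their ranges over the 9 libraries.

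**Figure D1:**
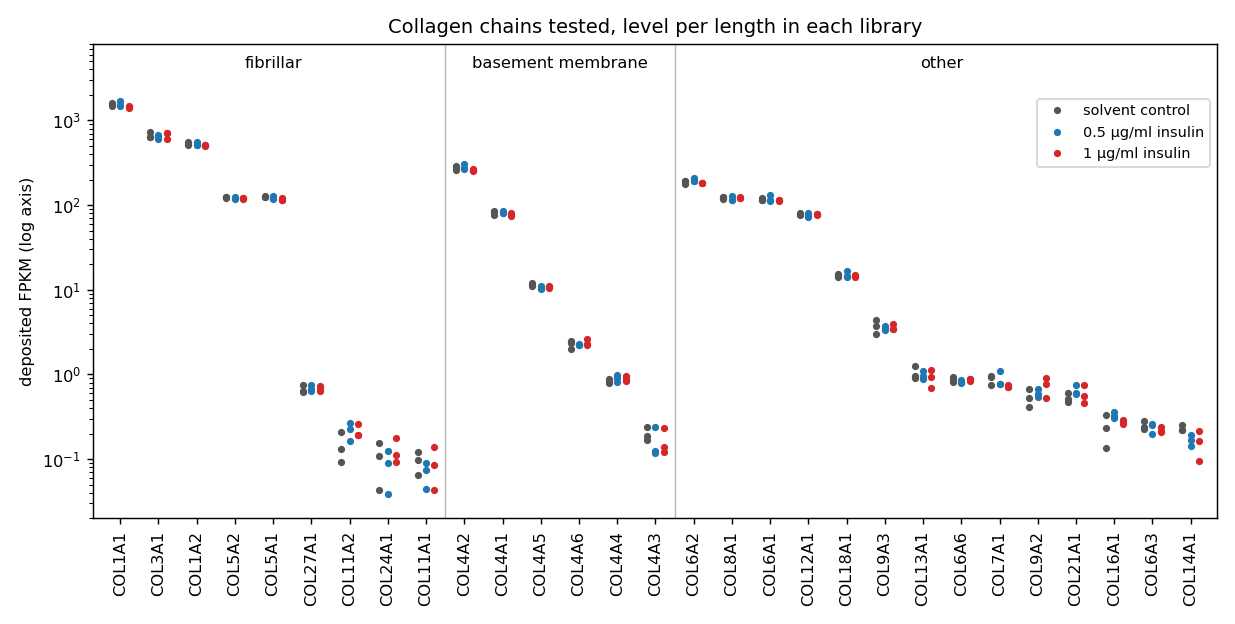
Level of each of the 29 tested chains as deposited FPKM on a log axis, 1 point per library, coloured by group, with chains placed by class and then by their mean over the 9 libraries. The points of the 3 groups lie close together for the abundant chains, and fibrillar levels fall from COL1A1 at 1524 FPKM to COL11A1 at 0.0843 FPKM.

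On the deposited FPKM scale, chains of the trimers below were unequal, except for the type V pair. Type I collagen takes 2 chains from COL1A1 and 1 from COL1A2, and the FPKM ratio of COL1A1 to COL1A2 was 2.90 ± 0.126 (SD, n = 9), with a range of 2.71 to 3.12. The ratio of COL5A1 to COL5A2 of type V was 0.993 ± 0.0467, and COL6A2 exceeded COL6A1 by a ratio of 1.63 to 1 ± 0.0481. COL6A3, which joins COL6A1 and COL6A2 in the common type VI trimer, was low in every library, at 0.235 ± 0.0273 FPKM, and the ratio of COL6A1 to COL6A3 ran from 403 to 570. COL6A6, a chain related to COL6A3, was at 0.856 ± 0.0432 FPKM, 3.11 to 4.12 times COL6A3 in the same library.

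Type IV ratios depended on the gene length used. The FPKM ratio of COL4A2 to COL4A1 was 3.42 ± 0.0809, but the deposited values divide COL4A1 by a length of 15595 bases, against 6616 bases for its longest coding transcript in GENCODE 29. With the longest coding transcripts the ratio was 1.44, and COL4A1 moved from the 10th to the 6th place among the chains, at 189 on the rescaled FPKM scale. The same change took the ratio of COL6A2 to COL6A1 to 2.23 and that of COL5A1 to COL5A2 to 1.27, while COL1A1 to COL1A2 was 2.73. COL4A5 exceeded COL4A6 by 4.25 to 5.45 times in FPKM and COL4A4 exceeded COL4A3 by 3.597 to 7.83 times.

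Summed over the 40 chains, collagen took 2.43%, 2.43% and 2.37% of all counts in control 1, 2 and 3, and 2.52%, 2.35% and 2.34% at the lower dose. At the higher dose it took 2.30%, 2.30% and 2.32%. All 3 higher dose libraries lay below all 6 others, and lower dose 1 had the highest share. The group means were 2.41% ± 0.0364, 2.40% ± 0.10 and 2.31% ± 0.0115 (SD, n = 3 each). This is a description of the libraries with no test, and COL1A1 alone made up 37.5% to 41.9% of the summed collagen FPKM.

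No chain was called in any comparison with insulin. A gene was called at a Benjamini-Hochberg adjusted p under 0.05 in the edgeR quasi-likelihood F-test over all 12665 genes that passed the filter. For the lower dose against control, the share of all genes called was 0%, and 0 of 29 chains were called. Likewise 0% of genes and 0 of 29 chains were called for the higher dose against control, between the doses, and for any difference among the 3 groups. At an unadjusted p under 0.05 in edgeR the chains numbered 0, 1 and 4 of 29 in the 3 comparisons, beside 770, 298 and 714 of 12665 genes. In the test for any difference they numbered 0 of 29, beside 4.43% of all genes. DESeq2 and limma each called 0 chains in these tests as well. At an unadjusted p under 0.05, DESeq2, run without the filter, gave 0, 1, 4 and 1 of 40 chains in the same order, beside 3.59%, 1.08%, 3.05% and 2.38% of all genes. At that p limma gave 0, 1, 0 and 0 of 29 chains, beside 5.92%, 2.79%, 5.72% and 4.62% of all genes.

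The data bounded most changes narrowly for the chains that were well covered. The 95% interval of the fold change lay within 1.25-fold for 18 of 29 chains in each of the 3 comparisons, and within 2-fold for 25, 26 and 27. The median log2 fold change of the 29 chains was -0.01 for the lower dose against control, -0.03 for the higher dose against control and -0.05 between the doses. Over all tested genes the medians were 0.0045, -0.00021 and -0.0012. Chains with a log2 fold change below 0 numbered 15 of 29 for the lower dose against control, beside 48.1% of all genes. For the higher dose against control they numbered 19 of 29, beside 50.2% of all genes, and between the doses 19 of 29, beside 50.5%. The comparisons share libraries, so these counts are not independent of each other.

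**Figure D2:**
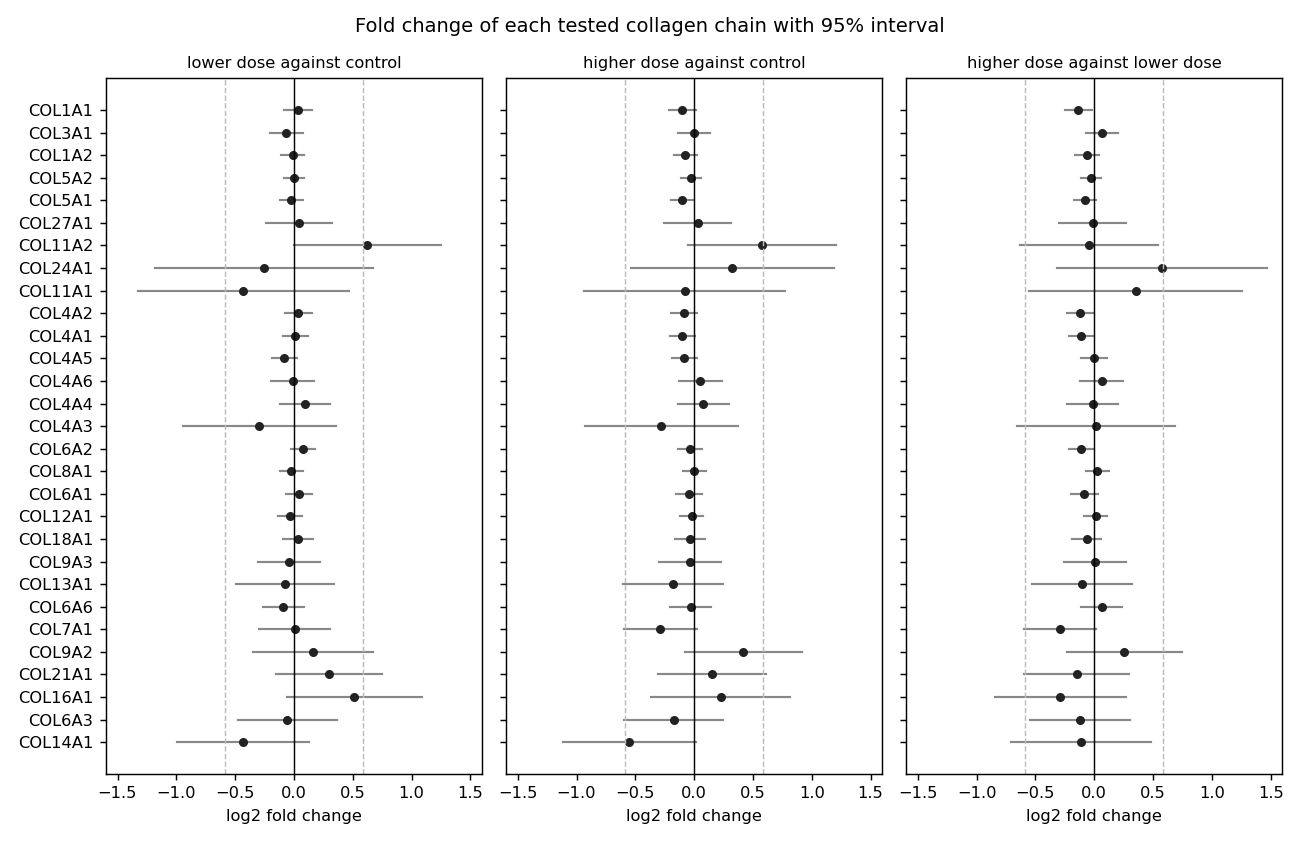
Log2 fold change of each tested chain (points) with its 95% interval (bars) from the edgeR model, 1 panel per comparison, with a solid line at 0 and dashed lines at 1.5-fold in either direction. The intervals of the abundant chains are short and lie near 0, and those of low chains such as COL24A1 and COL11A1 are wide.

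Among the fibrillar chains, COL1A1, the major chain of skin, bone and tendon collagen, was at 9281, 9518 and 8665 CPM in control 1 to 3. At the lower dose it was at 10244.5, 9035 and 8876 CPM, and at the higher dose at 8790, 8280.5 and 8552.5. The higher dose lay below the lower dose without overlap, with lower dose 1 the highest library, while the control range overlapped both. The log2 fold change between the doses was -0.14 ± 0.06 (SE), a 0.910-fold level with an interval of 0.840 to 0.987, with an adjusted p of 0.850 in the edgeR quasi-likelihood test. Without lower dose 1 it was -0.07. Against control, the log2 fold change of COL1A1 was 0.04 ± 0.06 at the lower dose and -0.10 ± 0.06 at the higher dose.

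COL1A2 was at 2852, 2675 and 2618 CPM in control, 2817, 2612.5 and 2649 at the lower dose and 2596, 2620 and 2525 at the higher dose. COL3A1 was at 3540, 3492 and 4044 CPM in control, 3304, 3576 and 3712 at the lower dose and 3299, 3855.5 and 3926 at the higher dose. Both overlapped across all groups, and for COL3A1 the spread inside a group exceeded any difference between groups. COL3A1 had a log2 fold change of 0.0005 ± 0.07 at the higher dose against control. Its level moved apart from that of COL1A1: their FPKM ratio was lowest in lower dose 1, at 0.348, and highest in control 3, at 0.503.

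COL5A1 and COL5A2 belong to type V collagen, which starts and limits the width of type I fibrils. COL5A1 was at 1330, 1363 and 1329.5 CPM in control, 1393, 1293 and 1278 at the lower dose and 1218, 1242 and 1293.5 at the higher dose. The higher dose lay below control without overlap, at a log2 fold change of -0.10 ± 0.05, a 0.933-fold level with an interval of 0.873 to 0.997. This was the smallest p among the chains in that comparison, and its adjusted p was 1.00 in the edgeR quasi-likelihood test. COL5A2 was at 879.9, 839 and 862 CPM in control, 843, 855 and 884.5 at the lower dose and 831, 851 and 852 at the higher dose, and was the steadiest chain, with a coefficient of variation of 2.07% over the 9 libraries. COL11A2, a minor chain of cartilage-type fibrils, was at 1.80, 1.14 and 0.780 CPM in control, 2.31, 1.95 and 1.43 at the lower dose and 1.65, 1.64 and 2.22 at the higher dose. Its groups overlapped, and at 33 counts per library on average its counting error alone was 17.4%. Its log2 fold change at the lower dose against control was 0.62 ± 0.30, with an adjusted p of 0.792 in edgeR, and it had the smallest p of the chains there. Without control 3 it was 0.38, and without control 1 it was 0.98.

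Of the basement membrane chains, COL4A1 and COL4A2 form the common type IV network. COL4A1 was at 1346, 1291 and 1189 CPM in control, 1334, 1256.5 and 1264 at the lower dose and 1252, 1179 and 1140 at the higher dose. COL4A2 was at 1871, 1805 and 1680 CPM in control, 1982, 1774 and 1742 at the lower dose and 1729, 1687.5 and 1631 at the higher dose. In all 3 groups library 1 had the highest value of each chain. The higher dose lay below the lower dose for both without overlap, while control overlapped both. The log2 fold changes between the doses were -0.11 ± 0.05 for COL4A1 and -0.12 ± 0.05 for COL4A2, each with an adjusted p of 0.850 in the edgeR quasi-likelihood test. Without lower dose 1 the value of COL4A2 was -0.06.

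COL4A5 and COL4A6 occur together in the basement membrane of smooth muscle and some epithelia. COL4A5 was at 81.6, 79.3 and 85.7 CPM in control, 75.6, 76.5 and 81.0 at the lower dose and 77.9, 75.5 and 79.4 at the higher dose. COL4A6 was at 19.8, 16.9 and 20.9 CPM in control, 19.6, 18.8 and 18.9 at the lower dose and 18.8, 19.3 and 21.7 at the higher dose. Groups overlapped for both chains. COL4A3 and COL4A4, best known from the glomerular basement membrane, were at 0.174 ± 0.0511 and 0.880 ± 0.0589 FPKM, and their groups overlapped in each comparison.

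Of the beaded filament chains, COL6A1 was at 483, 506 and 479.5 CPM in control, 557, 479 and 474.5 at the lower dose and 472, 475.5 and 477 at the higher dose. COL6A2 was at 913, 898.5 and 838.5 CPM in control, 994, 899 and 902 at the lower dose and 856, 864 and 864 at the higher dose. In both the highest library was lower dose 1, and the higher dose libraries sat closest together. COL6A1 at the higher dose lay below control without overlap, at a log2 fold change of -0.04 ± 0.05. COL6A2 at the higher dose lay below the lower dose without overlap, at -0.11 ± 0.05 with an adjusted p of 0.850 in the edgeR quasi-likelihood test, and at -0.06 without lower dose 1. COL6A3 was at 3.22, 2.67 and 2.53 CPM in control, 2.87, 2.26 and 2.95 at the lower dose and 2.40, 2.33 and 2.71 at the higher dose, with overlapping groups.

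The leading chains of the smaller classes were not called in any comparison. COL8A1, which forms hexagonal networks in Descemet's membrane and vessel walls, was at 659.5, 698 and 691 CPM in control, 719, 648 and 650 at the lower dose and 680, 692 and 680 at the higher dose. COL12A1 was at 942, 908 and 917 CPM in control, 968, 863 and 875 at the lower dose and 925, 913 and 892 at the higher dose. COL18A1, whose cleaved end is endostatin, was at 86.1, 91.7 and 91.2 CPM in control, 102 (lower dose 1), 85.5 and 87.6 at the lower dose and 86.7, 85.9 and 90.5 at the higher dose. For all 3 the groups overlapped, and lower dose 1 was the highest of the 9 libraries. The exons of COL18A1 overlap those of SLC19A1 on the opposite strand over 16.4% of their bases, and the strand setting of the counting is not given in the sources used here, so reads of these 2 genes may be mixed. COL13A1, a transmembrane collagen, was at 3.28, 3.11 and 4.29 CPM in control, 3.77, 3.08 and 3.30 at the lower dose and 3.20, 2.38 and 3.85 at the higher dose, and its groups overlapped.

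Among the low chains, COL7A1, which builds the anchoring fibrils under epithelia, was at 8.67, 8.94 and 7.06 CPM in control and 10.4, 7.19 and 7.19 at the lower dose. At the higher dose it was at 6.66, 6.95 and 6.61 CPM, below every library of both other groups. Its log2 fold change was -0.29 ± 0.15 against control (adjusted p = 1.00) and -0.29 ± 0.15 against the lower dose (adjusted p = 0.850) in edgeR, so it was not called. Without lower dose 1 the value between the doses was -0.09. COL14A1, a fibril-associated chain, was at 2.27, 1.98 and 1.95 CPM in control, 1.76, 1.29 and 1.53 at the lower dose and 0.851, 1.44 and 1.92 at the higher dose. Control lay above both insulin groups, with higher dose 3 at 1.92 just under control 3 at 1.95 CPM. Its log2 fold change was -0.43 ± 0.27 at the lower dose (adjusted p = 0.808) and -0.55 ± 0.27 at the higher dose (adjusted p = 1.00) in edgeR. The latter was -0.29 without higher dose 1 and -0.84 without higher dose 3. COL16A1, another fibril-associated chain, was at 2.06, 1.43 and 0.828 CPM in control, 1.91, 2.004 and 2.22 at the lower dose and 1.75, 1.59 and 1.68 at the higher dose. Control spread over both insulin groups, and the lower dose lay above the higher dose without overlap. At the lower dose against control its log2 fold change was 0.51 ± 0.27 (adjusted p = 0.796 in edgeR), while it was 0.23 without control 3 and 0.85 without control 1.

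**Figure D3:**
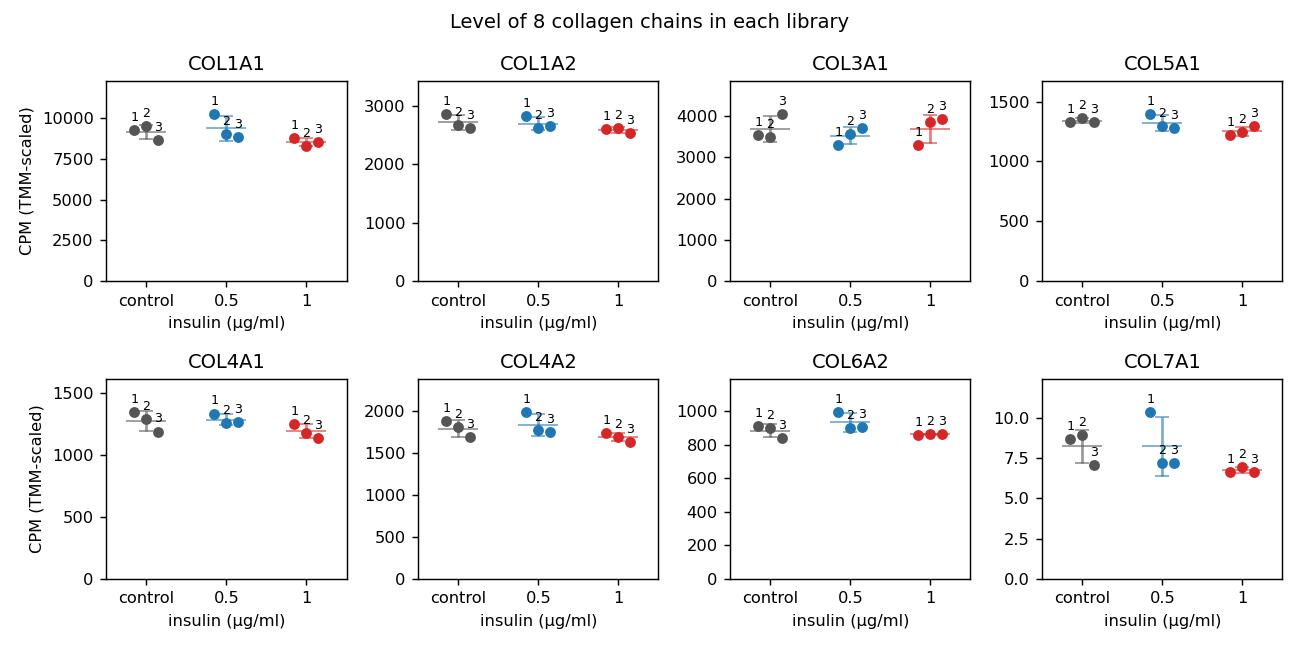
CPM of 8 chains in each of the 9 libraries, 1 panel per chain, against the insulin dose in µg/ml, with replicate numbers beside the points and the mean and SD of each group of 3 as lines. For COL1A1, COL4A2, COL6A2 and COL7A1 the highest point is lower dose 1, and the higher dose points lie below the lower dose points.

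These non-overlapping chains were set against the same count over all genes. At the lower dose, 1 of 29 chains (COL14A1) lay below control without overlap, beside 5.61% of all genes, and 0 of 29 reached an unadjusted p under 0.05 in edgeR, beside 6.08% of all genes. At the higher dose, 4 of 29 chains (COL5A1, COL6A1, COL7A1 and COL14A1) lay below control without overlap, beside 3.92% of all genes. Of the 29, only COL5A1 (1 chain) was lower at an unadjusted p under 0.05, beside 1.26% of all genes. Without control 2 or without higher dose 2 the count at that p in either direction was 0, beside 207 of 12764 and 225 of 12758 genes. Without control 3 it was 5 of 29, beside 394 of 12747 genes.

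Between the doses, 6 of 29 chains (COL1A1, COL4A1, COL4A2, COL6A2, COL7A1 and COL16A1) lay lower at the higher dose without overlap, beside 6.31% of all genes. Of these, COL1A1, COL4A1, COL4A2 and COL6A2 were lower at an unadjusted p under 0.05, which is 4 of 29 beside 3.19% of all genes. The 4 are all abundant chains and rest on the same libraries. The count at that p in either direction was 0 without lower dose 1, 0 without higher dose 2 and 1 without higher dose 3. Beside these stood 950 of 12754, 513 of 12758 and 454 of 12761 genes. In limma on log2 FPKM the count was 0, beside 724 of 12665 genes. In the other direction, 0 of 29 tested chains lay above without overlap, beside 5.1% of all genes for the lower dose against control, 3.81% for the higher dose against control and 5.85% between the doses.

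Chains of one trimer were compared across the 9 libraries on log2 CPM, over 6 pairs in which both chains passed the filter. COL4A1 and COL4A2 varied together most closely of these 6 pairs. Pearson's r was 0.921 (exact permutation p = 0.000342, adjusted 0.00205 over the 6 pairs) and Spearman's rho 0.95 (exact permutation p = 0.000353, adjusted 0.00212). With the group means removed r was 0.881 (adjusted 0.0143), with the means of each replicate number removed it was 0.841 (adjusted 0.0280), and without the 2 libraries farthest from the median of COL4A1 it was 0.898 (adjusted 0.00714), all by exact permutation. The points share library totals and the scaling of each library. Pairs of chains from different trimers were not compared. Whether this closeness is particular to a trimer or to a promoter pair was therefore not tested.

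The other pairs were looser. COL1A1 and COL1A2 had r = 0.748 (exact permutation p = 0.0224, adjusted 0.0449) and rho = 0.683 (exact permutation p = 0.0503, adjusted 0.151). Without the 2 farthest libraries r was 0.683 with an adjusted exact permutation p of 0.271, so the call was lost. COL6A1 and COL6A2 had r = 0.840 (exact permutation p = 0.0212, adjusted 0.0449) and rho = 0.467 (exact permutation p = 0.213, adjusted 0.425). That relation rests on lower dose 1: without it r was 0.385, and without the 2 farthest libraries 0.352. COL4A5 with COL4A6 had r = 0.312 (exact permutation p = 0.413) and rho = 0.400 (exact permutation p = 0.291). COL6A1 with COL6A3 had r = 0.306 (exact permutation p = 0.444) and rho = 0.317 (exact permutation p = 0.410), and COL5A1 with COL5A2 had r = 0.0613 (exact permutation p = 0.873) and rho = 0.0167 (exact permutation p = 0.982). Their adjusted p ran from 0.437 to 0.982. The differences between the pairs' correlations were not tested. The coefficient of variation of CPM was 11.9% for COL6A3 and 7.07% for COL4A6, beside counting errors of 13.7% and 5.08%. Counting error was thus a large part of the spread of these low chains, which limits what their r can show. COL4A3 with COL4A4 was not among the pairs compared, although both chains passed the filter.

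**Figure D4:**
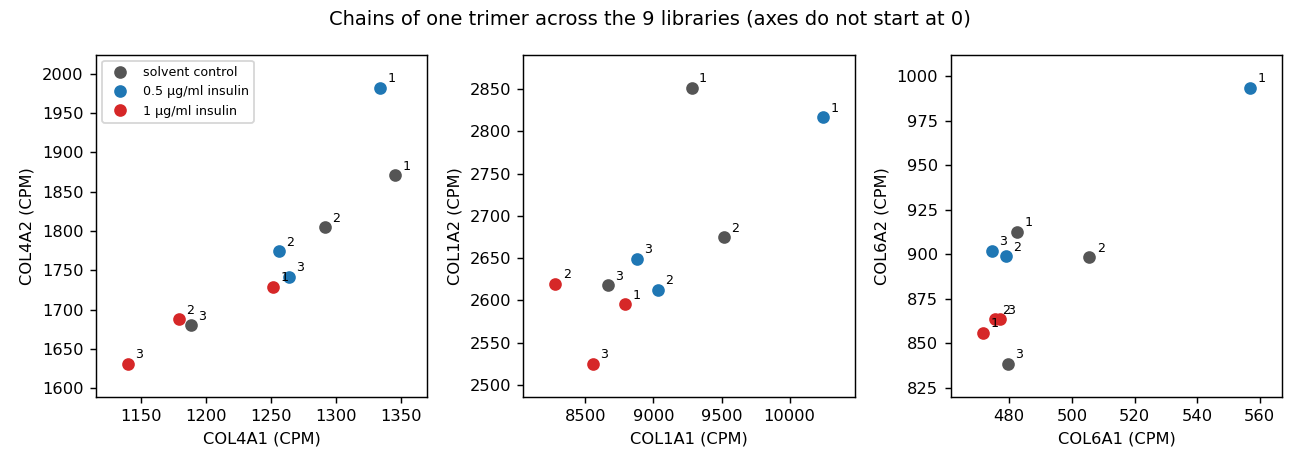
CPM of the 2 chains of 3 trimer pairs against each other, 1 point per library with its replicate number, coloured by group, on axes that do not start at 0. COL4A1 and COL4A2 vary together over the 9 libraries (r = 0.921 on log2 CPM), and in the panel of COL6A1 and COL6A2 lower dose 1 stands apart at the upper right.

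The spread between libraries differed among chains. Over the 9 libraries the coefficient of variation of CPM ran from 2.07% to 7.29% for the 11 most abundant chains and from 4.18% to 43.6% for the other 18. For COL1A1 it was 6.53% and for COL3A1 7.29%, where counting error alone gives 0.236% and 0.371%. For COL24A1, the most variable tested chain, it was 43.6% beside a counting error of 22.7%. Counting error was thus a small part of the spread of COL1A1 and COL3A1 and a larger part of that of COL24A1.

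The proteins that modify, secrete, cut, crosslink, bind and degrade collagen were taken from 7 lists of 77 genes, of which 62 passed the filter. None was called in either direction in any comparison by edgeR. At an unadjusted p under 0.05, 1 of 62 was higher and 1 lower at the lower dose against control, beside 2.87% and 3.21% of all genes. For the higher dose against control 0 were higher and 2 lower, beside 1.09% and 1.26% of all genes. Between the doses 2 were higher and 6 lower, beside 2.45% and 3.19% of all genes. Log2 fold changes below 0 numbered 25, 43 and 37 of 62, beside 48.1%, 50.2% and 50.5% of all genes. In the folding and modification list, 4 of 19 genes were lower and 1 higher between the doses at that p, and 12 had log2 fold changes below 0. In the crosslinking list all 5 were below 0, with a median of -0.10. The other lists went both ways between the doses. Genes below 0 numbered 1 of 5 for propeptide cleavage, 2 of 6 for secretion and 3 of 8 for receptors. For fibril-associated proteins they numbered 7 of 10, and for degradation and inhibitors 7 of 9.

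Levels differed widely within these lists. The highest gene of each list was P4HB, the beta subunit of prolyl 4-hydroxylase, at 658 ± 19.2 FPKM (SD, n = 9); SEC24D, a coat protein of procollagen export, at 76.7 ± 1.55; BMP1, the C-propeptide protease, at 34.1 ± 1.82; and LOX, a lysyl oxidase, at 581 ± 36.0. For the remaining lists it was SPARC, a collagen-binding matrix protein, at 1610 ± 29.4 FPKM; ITGB1, the beta 1 integrin of the collagen-binding receptors, at 369 ± 9.71; and TIMP2, a metalloproteinase inhibitor, at 554 ± 12.0. SPARC thus stood at a level close to that of COL1A1. At the other end, 15 of the 77 genes were not tested. The N-propeptide proteases ADAMTS2 and ADAMTS14 had 8 and 2 counts in all and ADAMTS3 stood at 0.218 ± 0.0421 FPKM. The fibril-binding proteoglycans DCN and LUM were at 0.216 ± 0.0272 and 0.742 ± 0.238 FPKM. POSTN, MMP3 and MMP9 had 1 count each, TIMP4 8 and the collagenase MMP1 15.

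The genes of these lists with the smallest p values differed by modest amounts. FKBP14, a prolyl isomerase of the endoplasmic reticulum, was at 45.2 ± 0.475 CPM at the lower dose and 51.0 ± 2.14 in control (SD, n = 3 each), a log2 fold change of -0.17 ± 0.06 (adjusted p = 0.764 in edgeR). LOXL1, a lysyl oxidase of elastic fibres, was at 1439.5 ± 105 CPM at the lower dose and 1333 ± 43.3 in control, with lower dose 1 the highest library at 1561, a log2 fold change of 0.11 ± 0.05 (adjusted p = 0.792 in edgeR). LOXL3 was at 1.54 ± 0.443 CPM at the higher dose and 2.39 ± 0.180 in control, a log2 fold change of -0.64 ± 0.25 (adjusted p = 1.00 in edgeR). COLGALT2, a collagen galactosyltransferase, was at 6.57 ± 0.422 CPM at the higher dose and 7.89 ± 0.598 in control, without overlap, a log2 fold change of -0.26 ± 0.12 (adjusted p = 1.00 in edgeR). Between the doses, BMP1 was at 128 ± 6.13 CPM at the higher and 141 ± 3.57 at the lower dose, with a log2 fold change of -0.14 ± 0.05 (adjusted p = 0.850 in edgeR). LOX was at 2900 ± 186 CPM at the higher and 3205 ± 63.9 at the lower dose, a log2 fold change of -0.14 ± 0.05 (adjusted p = 0.850 in edgeR). The differences of LOX and BMP1 between the doses had the size and direction of that of COL1A1, and none of the 3 passed the adjusted threshold. LOX and BMP1 were picked for small p in this comparison and share its libraries with COL1A1, so the likeness is not independent.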

How the data were processed

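RNA sequencing measured expression in 9 libraries of KGN cells. The authors deposited raw read counts per gene symbol and FPKM values for the same genes. Per the submitters' processing notes, the build was hg38 and the tools included DESeq, HTSeq and Trimmomatic, of versions not listed there. Aligner, annotation and strand setting were not given in the sources used here. FPKM values as deposited equal the deposited counts divided by 1 gene length and the library total: for 11053 of 11053 genes whose count reached 50 throughout, the implied length was whole within 0.01 bases. They were used for levels per length, as deposited, and in an alternative test.

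Counts were filtered with filterByExpr in edgeR 4.0.16 (minimum count 10, minimum total 15), which kept 12665 genes and removed 3318, scaled by TMM and fitted in 1 model over all 9 libraries. Quasi-likelihood F-tests (two-sided) were adjusted by Benjamini-Hochberg over all tested genes, and called at 0.05. The common biological coefficient of variation was 5.39%. CPM values use TMM-scaled totals, and limma 3.58.1 was run on log2(FPKM + 0.1). Positions came from GENCODE release 29. Correlations used exact permutations over all pairings, two-sided. A simulation of each comparison changed 67 genes by 1.25-fold, 67 by 1.5-fold and 66 by 2-fold. Its false calls numbered 4 for the lower dose and 5 for the higher dose against control, and 7 between the doses. The changed genes were drawn at random from all tested genes, and counts were drawn independently from the fitted spread of each gene. No library was made to stand apart as lower dose 1 does. Recovery with only a few genes changed, such as some chains alone, was not tested, nor was recovery for the low chains. On simulated counts of 12665 genes, edgeR recovered 50.7%, 88.1% and 98.5% of 1.25-, 1.5- and 2-fold changes for the lower dose against control; 55.2%, 88.1% and 92.4% for the higher dose against control; and 56.7%, 80.6% and 97% between the doses.

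The members, classes and gene lists were chosen with earlier results of these data known. Values in every library are given for the 3 most abundant chains, the most abundant of each class, the 3 of smallest p in each comparison and the chains of the listed trimer pairs. Of the other lists, the most abundant gene of each and the 2 genes of smallest p per comparison are named. Alternatives were DESeq2 1.42.0, RLE size factors, no filter or a filter of 1 CPM in 3 libraries, fits of 2 groups, limma, the replicate number as a block and leaving out each library. Leaving out a library for the correlations and for counts at an unadjusted p, and the longest coding transcript as gene length, were added after seeing the data.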

Additional observations from a re-analysis of the deposited data

How the results depend on the processing

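No chain was called under any alternative, in any of the 3 comparisons or in the test for any difference. Of 462 fold changes of the named genes, chains and list genes together, recomputed under alternatives that leave out no single library, 449 kept their direction and none was called (smallest adjusted p 0.573), and of 396 with a library left out 351 kept it (smallest adjusted p 0.368). The medians of the chains moved by less than the spread between libraries (SD 0.0498 on the log2 scale), with ranges when a library was left out of -0.05 to 0.03 (lower dose against control), -0.05 to -0.03 (higher dose against control) and -0.09 to -0.0044 (between the doses). Over all genes the counts moved: without the count filter 6, 3 and 4 genes were called in the 3 comparisons and 8 in the test for any difference, and DESeq2 called 1 gene there, none of them a chain. Leaving out a library gave 0 to 1, 0 to 0 and 0 to 2 called genes in the comparisons and 0 to 3 in that test. With a library left out, chains at an unadjusted p under 0.05 numbered 0 to 2, 0 to 5 and 0 to 5. Genes at that p then numbered 413 to 1333, 207 to 489 and 454 to 950, of 12747 to 12771 tested. The cause of these shifts was not tested.

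Under alternatives that leave out no single library, 13 values turned direction, with log2 fold changes near 0. For the lower dose against control COL5A2 was at -0.000155 with RLE factors, -0.000863 with no filter, -0.000497 with the stricter filter, -0.000290 in DESeq2 and -0.00907 in limma, and COL7A1 at -0.000661 with the replicate block and -0.0171 in limma. For the higher dose against control COL3A1 was at -0.000895 with the replicate block. Between the doses COL4A5 was at 3.81e-05 with RLE factors, 0.000819 with no filter, 2.29e-05 with the stricter filter, 0.000102 in DESeq2 and 0.0125 in limma. With a library left out, the log2 fold changes that turned ranged as follows. Lower dose against control: COL13A1 -0.164 to 0.0835, COL18A1 -0.0515 to 0.0806, COL1A1 -0.0318 to 0.0741, COL1A2 -0.0453 to 0.0256, COL3A1 -0.103 to 0.00515, COL4A1 -0.0383 to 0.0515, COL4A2 -0.0225 to 0.0733, COL4A6 -0.0932 to 0.0556, COL5A1 -0.0615 to 0.00165, COL5A2 -0.0195 to 0.0178, COL6A1 -0.0376 to 0.0818, COL6A3 -0.128 to 0.0544, COL7A1 -0.192 to 0.0956 and COL8A1 -0.0739 to 0.00318. Higher dose against control: COL16A1 -0.0573 to 0.565, COL3A1 -0.0456 to 0.0755, COL4A6 -0.0294 to 0.119 and COL8A1 -0.0217 to 0.0188. Between the doses: COL11A2 -0.215 to 0.123, COL12A1 -0.0177 to 0.0669, COL13A1 -0.277 to 0.0593, COL14A1 -0.41 to 0.141, COL18A1 -0.113 to 0.0192, COL4A5 -0.0206 to 0.0306, COL4A6 -0.00358 to 0.105 and COL8A1 -0.000789 to 0.0763.

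The correlation of COL1A1 with COL1A2 was no longer called with group means removed (r = 0.638), with replicate number means removed (0.613) or without the 2 farthest libraries (0.683), nor was that of COL6A1 with COL6A2 without the 2 farthest libraries (0.352). COL5A1 with COL5A2 turned to -0.422 with group means removed and -0.149 without the 2 farthest libraries, and COL4A5 with COL4A6 to -0.226 with replicate number means removed. With each library left out in turn r ran from 0.611 to 0.858 for COL1A1 with COL1A2, 0.899 to 0.976 for COL4A1 with COL4A2, 0.0340 to 0.466 for COL4A5 with COL4A6, -0.351 to 0.274 for COL5A1 with COL5A2, 0.385 to 0.884 for COL6A1 with COL6A2 and 0.189 to 0.468 for COL6A1 with COL6A3. The adjusted exact permutation p of COL1A1 with COL1A2 then ran from 0.0259 to 0.308. It was under 0.05 only without control 1. For COL6A1 with COL6A2 it ran from 0.0484 to 0.578, and was under 0.05 only without control 3 or lower dose 3.

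Libraries of the same replicate number in different groups had residual correlations of -0.0117 to 0.161, beside -0.111 to 0.0572 for different numbers. Between control and higher dose they were 0.0818, 0.0373 and 0.161 for equal numbers, beside -0.111 to 0.0286 for different numbers. With the lower dose, equal numbers gave -0.0117 to 0.0538. The main model did not take the numbers as pairs, and whether they are pairs was not tested. With the replicate block 0 genes and 0 chains were called in each comparison, as without it. In the 3 comparisons, genes at an unadjusted p under 0.05 in edgeR moved from 770 to 971, 298 to 343 and 714 to 891. Chains at that p moved from 0 to 1, 1 to 2 and 4 to 4. In the test for any difference, genes at that p moved from 561 to 749 and chains from 0 to 3. Counting error rose from 0.236% for COL1A1 to 26.9% for COL11A1, so depth bears most on the low chains.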
